A study of Mus musculus with 4 samples.

Results

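The cells described here were the Lineage- Sca-1+ cKit+ (LSK) bone marrow cells that held transcripts of both Nr4a1 and Gem after 5-fluorouracil (5-FU), an antimetabolite toxic to cells in S phase. They were chosen from all cells that a hashtag assigned to 1 genotype, by a single criterion, at least 1 unique molecular identifier (UMI, 1 counted transcript) of Nr4a1 and at least 1 of Gem. Of 9029 such cells, 517 met it and are called double-positive. A further 604 held Nr4a1 only, 2189 held Gem only, and 5719 held neither and are called double-negative. Both genes were read to make the choice, so their own levels are given as a description. Genotype and all other genes were not used.

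Nr4a1 encodes an orphan nuclear receptor of the NR4A family and Gem a small GTPase of the RGK family that restrains voltage-gated calcium channels and cytoskeletal signaling. Both are immediate early genes, the class that is transcribed within minutes of a signal, without new protein synthesis, from promoters that bind factors such as CREB and SRF already present in the cell. In blood-forming cells Nr4a1 and its relative Nr4a2 are known for restraining stem cell proliferation. Meg3, which was named with these cells as a marker, is a maternally expressed long noncoding RNA of the imprinted Dlk1-Meg3 locus, known for its expression in long-term hematopoietic stem cells (LT-HSCs).

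Promoters of 4 of the genes described below are shown as examples. Their transcripts were higher in double-positive than in double-negative cells of both genotypes, apart from Nr4a1, which defined the cells. Other genes that were also higher are not shown. Each runs from 250 bases before the start of the RefSeq gene to 50 bases after it, 5′ to 3′ on the gene's strand, in GRCm38.p6. Capitals mark TGACG, the core of the cAMP response element (CRE) that CREB binds, on either strand, and in Meg3 the whole element TGACGTCA.
Nr4a1: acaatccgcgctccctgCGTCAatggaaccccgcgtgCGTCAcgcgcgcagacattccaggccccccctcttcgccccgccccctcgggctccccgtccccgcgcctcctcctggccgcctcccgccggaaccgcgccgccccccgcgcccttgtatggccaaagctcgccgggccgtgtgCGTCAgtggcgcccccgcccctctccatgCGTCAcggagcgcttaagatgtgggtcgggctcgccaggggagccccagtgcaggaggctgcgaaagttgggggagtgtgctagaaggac
Nr4a2: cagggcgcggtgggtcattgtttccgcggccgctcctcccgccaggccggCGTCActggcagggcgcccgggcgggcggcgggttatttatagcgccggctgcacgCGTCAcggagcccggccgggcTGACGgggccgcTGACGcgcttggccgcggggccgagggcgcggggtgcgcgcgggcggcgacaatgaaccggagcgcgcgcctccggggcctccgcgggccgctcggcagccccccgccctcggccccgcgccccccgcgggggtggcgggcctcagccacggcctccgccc
Fos: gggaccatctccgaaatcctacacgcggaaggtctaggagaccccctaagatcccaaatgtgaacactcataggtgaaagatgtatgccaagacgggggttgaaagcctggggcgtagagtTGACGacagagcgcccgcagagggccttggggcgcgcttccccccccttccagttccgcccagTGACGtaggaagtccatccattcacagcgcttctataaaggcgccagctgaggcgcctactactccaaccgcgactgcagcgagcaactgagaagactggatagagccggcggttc
Meg3: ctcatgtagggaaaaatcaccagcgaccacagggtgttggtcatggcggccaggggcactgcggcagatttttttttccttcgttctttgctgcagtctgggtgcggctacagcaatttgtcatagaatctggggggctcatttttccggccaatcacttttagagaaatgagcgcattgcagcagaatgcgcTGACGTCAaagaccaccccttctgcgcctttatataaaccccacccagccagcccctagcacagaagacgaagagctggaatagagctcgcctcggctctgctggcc
The windows lie at chr15:101266596-101266895 on the plus strand for Nr4a1, chr2:57123954-57124253 on the minus strand for Nr4a2, chr12:85473640-85473939 on the plus strand for Fos and chr12:109540746-109541045 on the plus strand for Meg3. Nr4a1 and Nr4a2 each held 4 cores that were not part of a whole element, Fos held 2, and this Meg3 window held 1 whole element and no other core. A second Meg3 window, at chr12:109545148-109545447, held neither, nor did the Cxcl2 window. The window of Junb, also higher in both genotypes, held 1 core and no whole element. The windows of Junb and Cxcl2 and the second Meg3 window are not shown. The windows shown all held a core or a whole element, so they do not stand for the higher genes as a group. Among 32851 promoter windows of the same length, 20.8% held the core, whole elements included, and 1.79% the whole element. In the list of immediate early genes described below, 19 of the 30 windows of 20 genes (63.3%) held the core. Among the 15 genes highest in double-positive cells, 3 of 12 windows (25%) held it. Other motifs were also more frequent in the immediate early windows than in all windows, with the CArG box bound by SRF in 16.7% against 1.63% and an NF-kB site in 20% against 4.51%, and the whole element was in 3.33% against 1.79%. Base composition was not matched between these windows, and a match is only a run of letters. Gem, Sik1, Trib1, Nfkbiz and Hes1 had no window in the table used.

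The study compared wild-type mice (Sin3B F/F with no Cre) with knockout mice (Sin3B F/F with Vav1-iCre, a transgene driven by the Vav1 promoter and active in hematopoietic cells), so both genotypes carried the floxed allele and the Cre was present only in the knockout. Cells were sorted 9 days after 100 mg/kg of 5-FU, or without treatment (homeostasis), from 2 mice per genotype that were combined into 1 pool. Wild-type cells carried the hashtag B0096 and knockout cells B0157, and cells of both genotypes shared a library. Each genotype therefore had 1 pool per library, cells are not replicates, and no difference below has a replicate check or a p-value. Intervals are 95% exact binomial or Poisson intervals and cover counting error only.

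After 5-FU, 255 of 5302 wild-type cells were double-positive (4.81%, interval 4.25 to 5.42), and 262 of 3727 knockout cells (7.03%, 6.23 to 7.90). The knockout share was thus 2.22 percentage points higher at the depth of the library. Depth differed with both genotype and class. The median double-positive cell held 11142 UMIs in the wild type and 14969 in the knockout, against 8564 and 9526 in double-negative cells, and a deeper cell has more chances to show both genes. In the wild type 1 double-positive cell held 210064 UMIs, 5.65% of all UMIs of that pool, and the next held 56596. When every cell was thinned to 4000 UMIs, which left out 654 wild-type and 276 knockout cells, the shares were 1.48% (69 of 4648, 1.16 to 1.88) and 1.91% (66 of 3451, 1.48 to 2.43), and their intervals overlapped. The mean over all possible draws was 1.49% and 1.64%.

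Within quartiles of depth the order of the genotypes was not the same throughout. In the lowest quartile, up to 6969 UMIs, the share was 2.01% in the wild type (1.37 to 2.83) and 1.40% in the knockout (0.674 to 2.56). In the second it was 5.19% (4.08 to 6.49) and 3.92% (2.73 to 5.43), so the intervals of both lower quartiles overlapped. In the third they were 5.97% in the wild type (80 of 1339, 4.77 to 7.38) and 10.0% in the knockout (92 of 918, 8.16 to 12.1). In the highest they were 6.99% (5.51 to 8.72) and 10.3% (8.63 to 12.1). The knockout share was thus higher only among cells of more than 9943 UMIs. Knockout cells were also deeper. The highest quartile held 1227 of 3727 knockout and 1030 of 5302 wild-type cells, and the lowest 714 and 1546. Weighted to wild-type depth, or under other tag calls, the knockout share was lower than at the main settings. Those values are given with the alternatives.

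**Figure D1:**
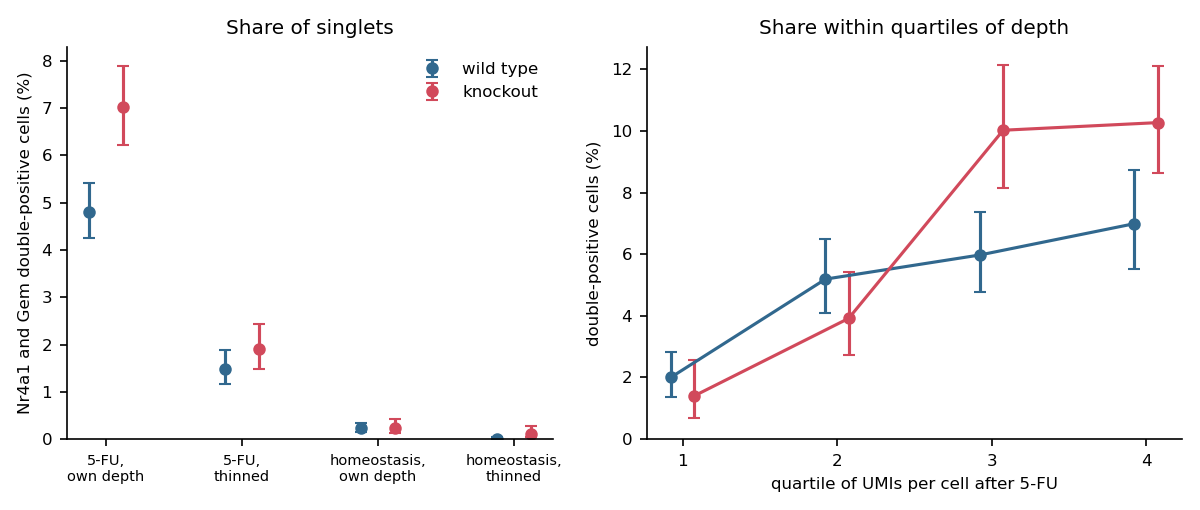
Left, the share of singlets that were double-positive in wild-type (blue) and knockout (red) cells, in both libraries, at own depth and thinned to 4000 UMIs. Right, the share within quartiles of UMIs per cell after 5-FU. Points are shares and bars 95% exact binomial intervals; the knockout was lower in quartiles 1 and 2 (1.40% and 3.92%) and higher in quartiles 3 and 4 (10.0% and 10.3%).

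Nr4a1 and Gem were found together more often than their separate frequencies give. Nr4a1 was detected in 617 wild-type cells (11.6%) and 504 knockout cells (13.5%), and Gem in 27.8% and 33.0%. The product of these frequencies gives 172 wild-type and 166 knockout cells with both, and the observed numbers were 1.48 and 1.58 times as high. With the product taken within deciles of depth, the ratios were 1.37 and 1.35. These counts defined the cells, so the ratios are a description, and the product was not taken within clusters.

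Few double-positive cells lay far inside the criterion. Exactly 1 UMI of each gene was held by 98 of 255 cells in the wild type (38.4%) and 62 of 262 in the knockout (23.7%), while 43 and 66 held at least 2 of each. Just outside it, 281 of 362 wild-type cells with Nr4a1 only and 718 of 1221 with Gem only held a single UMI of that gene, and in the knockout these were 156 of 242 and 565 of 968. The highest count in a double-positive cell was 8 Nr4a1 UMIs in the wild type and 15 in the knockout, and 18 and 19 Gem UMIs. Levels are given as CPM, the UMIs of a gene relative to all UMIs of the pooled cells, and Nr4a1 stood at 99.6 in wild-type and 101 in knockout double-positive cells, and Gem at 163 and 145.

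Free RNA could not be measured in the 5-FU library, which listed only barcodes called as cells. Its part in the classes and in the ratios between them was therefore not tested. Values from the homeostasis library are given at the end. No cell type here is known to lack both genes. As a comparison, a cluster of early B-lineage cells led by Vpreb2 and Vpreb3 (median 9083 UMIs) held Nr4a1 in 3.64% and Gem in 23.6% of 55 cells, and none of them was double-positive, which allows a share of up to 6.49%. Of these B-lineage cells 44 were wild-type and 11 knockout. Gem was detected in them nearly as often as in all wild-type cells. The share with Nr4a1 was lower, but it rests on 55 cells and has no interval, so whether Nr4a1 was rarer in them cannot be said.

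Sin3b, the targeted gene and a subunit of a histone deacetylase corepressor complex, was examined in the double-positive cells of each genotype. It was counted 494 times in wild-type double-positive cells (133 CPM, in 74.5% of cells) and 76 times in knockout double-positive cells (15.2 CPM, in 26.0% of cells). On the log2 scale the knockout-to-wild-type ratio was -3.12 (-3.50 to -2.78), and it was -2.89 in double-negative cells. The sort genes were present, with Kit in 85.9% and 90.5% of wild-type and knockout double-positive cells and Ly6a (Sca-1) in 78.8% and 82.1%.

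The cells were next placed within the LSK compartment. Cells after 5-FU were grouped into 18 clusters without Nr4a1, Gem, the list of immediate early genes, those of DNA replication and mitosis, or Sin3b. Meg3 was not left out. Double-positive cells were found in 12 of the clusters, and 1 cluster, led by Meg3, Smtnl1, Plcl1 and Sorbs2, held 113 of the 255 double-positive cells of the wild type (44.3%) and 110 of the 262 of the knockout (42.0%). Of its 1438 cells 15.5% were double-positive (13.7 to 17.5), 12.2% in the wild type and 21.4% in the knockout. Its median depth of 10233 UMIs was below that of the histone-gene cluster with the next highest share, 10.2% at 25853 UMIs.

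The share in 4 other large clusters was low. In the cluster led by Cyp26b1, which took 19.6% of knockout cells, 0.771% were double-positive (0.334 to 1.51), with Nr4a1 in 5.88% and Gem in 17.0% of cells, against 23.7% and 56.5% in the Meg3-led cluster. In the cluster led by Gm33332, Stx3 and Pdgfrb, with Fosb among its leading genes, 0.872% were. In the cluster led by the antigen presentation genes H2-Eb1 and H2-Aa the share was 2.23%. In the cluster led by Klrd1 and Mpeg1 it was 1.81%. These 4 clusters had median depths of 7287 to 9333 UMIs. The cluster led by Slc16a11 and Clec10a held 56 double-positive cells, a share of 6.92%, and those led by Ache and by Ung held 48 each.

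**Figure D2:**
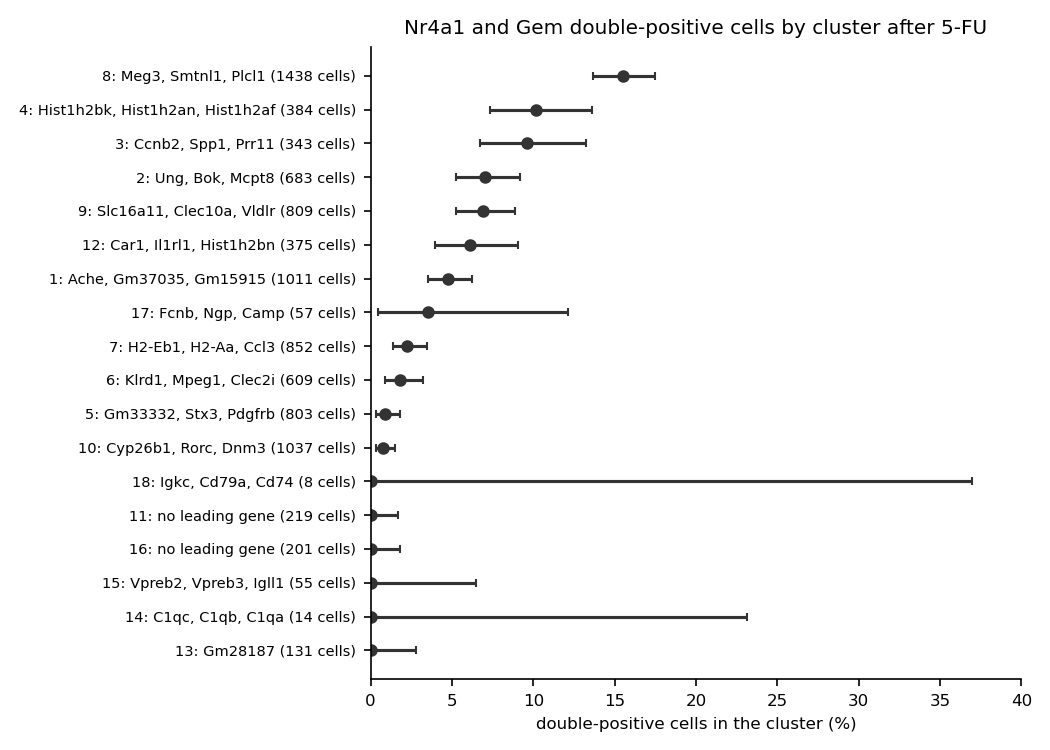
Share of double-positive cells in each of the 18 clusters after 5-FU, with 95% exact binomial intervals and the leading genes of each cluster on the vertical axis. The Meg3-led cluster stands highest at 15.5%, and clusters of 8 and 14 cells have wide intervals around 0.

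Double-positive cells were spread over all signature classes. Each cell with at least 4000 UMIs was assigned the class whose gene list scored highest at that depth. For 18.9% of cells the top 2 classes lay within 0.2 SD. In the wild type, 24.1% of double-positive cells were of the LT-HSC class, 22.5% ST-HSC (short-term stem cells), 10.0% MPP2, 18.1% MPP3 and 25.3% MPP4 (multipotent progenitors). By class, the share of double-positive cells ranged from 3.25% of MPP2 to 7.50% of LT-HSC class cells in the wild type, and from 6.12% of LT-HSC to 9.40% of MPP3 class cells in the knockout. The intervals of the LT-HSC and MPP4 classes overlapped in both genotypes, and the knockout MPP2 and MPP3 class cells were deep, with medians of 21554 and 16315 UMIs. In the wild type the MPP2 class, with the lowest share, was the deepest (median 15420.5 UMIs). The wild-type LT-HSC class, with the highest share, was the shallowest (8647.5).

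Across all genes, double-positive cells were first compared with double-negative cells within each genotype. Of 13094 genes with at least 50 UMIs, 200 (1.53%) were at least 1.5-fold higher in both genotypes and 246 (1.88%) at least 1.5-fold lower. In the wild type alone 6.1% were higher and 5.7% lower, and in the knockout alone 4.4% and 7.74%. The median log2 ratio over all genes was -0.00098 in the wild type and -0.036 in the knockout.

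Some immediate early genes other than Nr4a1 were higher in the double-positive cells. Of 23 measured members of a list of immediate early transcription factors, 9 were at least 1.5-fold higher in both genotypes and 0 lower, beside 1.53% and 1.88% of all genes. Their median log2 ratio was 0.46 in the wild type and 0.69 in the knockout. The 9 were Fosl2, Junb, Egr3, Nr4a2, Klf2, Ier2, Ier3, Maff and Csrnp1.

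Junb, a subunit of the AP-1 transcription factor that restrains stem cell cycling, stood at 267 CPM in wild-type double-positive and 135 CPM in wild-type double-negative cells, and at 314 and 113 CPM in knockout cells. The log2 ratios were 0.98 (0.88 to 1.08) and 1.48 (1.39 to 1.56), so it was higher in the double-positive cells of both genotypes. In cells with Nr4a1 only it was at 244 CPM in the wild type and 224 CPM in the knockout, and in cells with Gem only at 176 and 163 CPM, between the other 2 classes in both genotypes.

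Fos, the AP-1 partner of the JUN proteins, differed more between the genotypes. It stood at 392 CPM in double-positive and 276 CPM in double-negative wild-type cells, a log2 ratio of 0.51 (0.43 to 0.59). In the knockout it stood at 437 and 137 CPM, a log2 ratio of 1.67 (1.59 to 1.75). Double-positive cells of both genotypes thus had similar levels, and the knockout double-negative cells were the low group. In wild-type cells Fos was highest in cells with Nr4a1 only, at 455 CPM.

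Nr4a2, the NR4A receptor closest to Nr4a1, was at 22.9 against 10.1 CPM in the wild type (log2 ratio 1.18, 0.82 to 1.52) and at 42.4 against 8.91 CPM in the knockout (2.25, 1.98 to 2.52). In cells with Nr4a1 only Nr4a2 was at 25.4 CPM in the wild type, above the double-positive level, and at 36.4 CPM in the knockout. It was found in 47 wild-type and 113 knockout double-positive cells, so no small number of cells carried it. Nr4a3, the remaining family member, had 39 UMIs over the 4 pools and was not compared. Rrad, the only other RGK GTPase with enough UMIs, was at 19.9 against 10.6 CPM in the wild type (0.92) and 15.6 against 9.37 CPM in the knockout (0.74).

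Egr1, a zinc finger factor that keeps stem cells quiescent, was at 428 against 293 CPM in the wild type and 222 against 144 CPM in the knockout. The log2 ratios were 0.55 and 0.62, alike in both genotypes, while its level in the knockout was lower in both classes. Jun was at 568 against 442 CPM in the wild type and 459 against 280 CPM in the knockout, log2 ratios of 0.36 and 0.71.

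A few members of the list did not move with the others. Fosb was at 64.9 CPM in wild-type double-positive and 132 CPM in wild-type double-negative cells (log2 ratio -1.02, -1.22 to -0.84), and at 99.4 against 66.4 CPM in the knockout (0.58, 0.44 to 0.73), so its direction was opposite in the 2 genotypes. Myc, a driver of growth and division, was lower in double-positive cells, at 82.1 against 110 CPM in the wild type and 65.4 against 80.8 CPM in the knockout, log2 ratios of -0.42 and -0.30. Klf10 was at 65.9 against 62.5 CPM and 50.8 against 52.1 CPM, with both intervals of the ratio including 0.

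**Figure D3:**
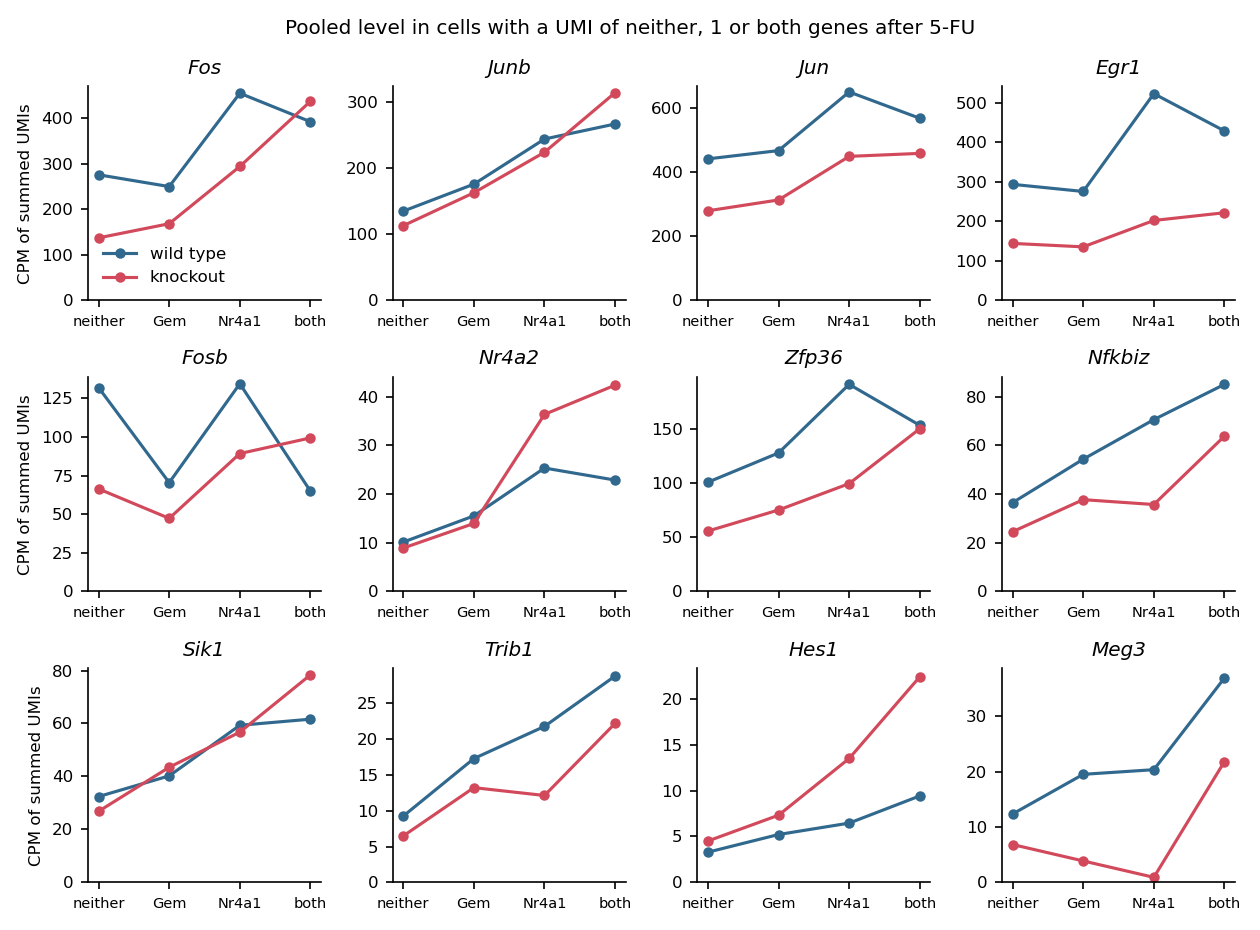
Level of 12 genes, in CPM of summed UMIs, in cells with a UMI of neither gene, of Gem only, of Nr4a1 only and of both, in wild-type (blue) and knockout (red) cells after 5-FU; each point is 1 pool with no replicate. Junb was at 135 CPM with neither and 267 CPM with both in the wild type, and at 113 and 314 CPM in the knockout, while wild-type Fosb was at 132 and 64.9 CPM.

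Regulators of signaling were examined as a second list. Of 17 measured genes of a list of MAP kinase and receptor feedback, 2 were at least 1.5-fold higher in both genotypes and 0 lower, beside 1.53% and 1.88% of all genes, with medians of 0.39 and 0.53. The 2 were Trib1 and Sik1. Trib1, a pseudokinase that directs the degradation of C/EBP alpha, was at 28.8 against 9.25 CPM in the wild type (1.64, 1.31 to 1.96) and 22.2 against 6.48 CPM in the knockout (1.78, 1.42 to 2.12). Sik1, a kinase induced by cAMP that restrains CREB coactivators, was at 61.6 against 32.4 CPM (0.93, 0.72 to 1.13) and 78.4 against 26.8 CPM (1.55, 1.37 to 1.72). In cells with Nr4a1 only Sik1 was at 59.3 CPM in the wild type and 56.7 CPM in the knockout. Dusp1, a MAP kinase phosphatase, had log2 ratios of 0.51 and 1.26, and Dusp2 of 0.65 and 0.08.

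Of 15 measured genes of a list of cAMP and CREB responsive genes, Sik1 and Nr4a2 were higher in both genotypes and 0 were lower, beside 1.53% and 1.88% of all genes, and the medians were -0.18 and -0.088. Per1, Pde4b and Pde4d, classic targets of CREB, had log2 ratios between -0.13 and 0.15. Of 15 genes of calcineurin and NFAT signaling, 1 (Egr3) was higher, at 5.65 against 1.75 CPM and 3.60 against 0.528 CPM, with 21 and 18 UMIs in the double-positive pools. Another, the NFAT target Rcan1, was lower, at 3.23 against 6.56 CPM and 3.00 against 5.57 CPM.

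Genes of the NF-kB and TNF response formed a further list. Of 23 measured genes, 7 were at least 1.5-fold higher in both genotypes and 0 lower, beside 1.53% and 1.88% of all genes, and the medians were 0.49 and 0.45. The 7 were Nfkbiz, Nfkbid, Nfkb2, Bcl3, Cxcl2, Tnf and Zfp36. Nfkbiz, a nuclear IkB protein, was at 85.0 against 36.4 CPM in the wild type (1.22, 1.04 to 1.40) and 63.8 against 24.5 CPM in the knockout (1.38, 1.18 to 1.57), and was found in 147 and 165 double-positive cells. Zfp36, which destabilizes mRNAs of inflammatory genes, was at 154 against 101 CPM (0.61, 0.47 to 0.73) and 151 against 55.9 CPM (1.43, 1.30 to 1.56). In cells with Nr4a1 only Zfp36 was at 192 CPM in the wild type, above the double-positive level, and at 99.8 CPM in the knockout. Tnf had 12 and 28 UMIs in the double-positive pools. The transducers themselves differed little, with log2 ratios of -0.14 and 0.07 for Rela, 0.04 and -0.11 for Nfkb1 and -0.03 and -0.08 for Rel.

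Cxcl2, a chemokine for neutrophils, had high ratios from few cells. It was at 6.46 against 1.17 CPM in the wild type (2.47, 1.67 to 3.22) and 26.2 against 1.20 CPM in the knockout (4.44, 3.90 to 5.04). These were 24 UMIs in 12 wild-type cells and 131 UMIs in 22 knockout cells, and the cell with most held 33.3% and 21.4% of them. The chemokine Ccl3 went the other way, at 15.6 against 21.1 CPM and 3.60 against 14.4 CPM.

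Meg3 was at 36.9 against 12.3 CPM in the wild type (1.58, 1.29 to 1.86) and 21.8 against 6.83 CPM in the knockout (1.68, 1.32 to 2.02). Its 137 wild-type UMIs came from 31 cells and its 109 knockout UMIs from 18 cells, so most double-positive cells had none. The cell with most held 18.2% and 31.2% of them, and without that cell the log2 ratios were 1.30 and 1.14. After thinning to 4000 UMIs, the knockout ratio was -0.66. In both genotypes together, 9.48% of double-positive cells held a Meg3 UMI, against 5.46% of cells with Nr4a1 only and 4.61% with Gem only. Inside the Meg3-led cluster it was at 103 against 55.0 CPM in the wild type and 53.5 against 9.34 CPM in the knockout, and outside it at 5.56 against 7.98 CPM and 10.1 against 6.68 CPM. Meg3 thus marked a minority of the double-positive cells. Most of its UMIs lay in 1 cluster, but Meg3 was not left out of the clustering and that cluster was picked by it. Its place there is therefore a description only.

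Among 14 measured imprinted genes Meg3 and its neighbour Dlk1 were higher in both genotypes, and the medians were 0.13 and -0.022. Dlk1, an inhibitor of NOTCH signaling, was at 8.61 against 2.52 CPM in the wild type and 1.80 against 0.528 CPM in the knockout, with 32 and 9 UMIs in the double-positive pools. Rian, a noncoding RNA of the same locus, had log2 ratios of 0.080 and 2.58 from 9 and 19 UMIs.

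Further genes with the highest ratios in both genotypes were low in level and of mixed function. Hes1, a repressor downstream of NOTCH, was at 9.42 against 3.29 CPM in the wild type (1.53, 0.93 to 2.07) and 22.4 against 4.51 CPM in the knockout (2.31, 1.93 to 2.69). Bhlhe40, a stress-responsive repressor, was at 11.6 against 3.64 CPM and 7.40 against 3.59 CPM. Phlda1, Chga, Lgmn, Chil5, Bcas1, Tctn2 and P2rx7 had between 15 and 98 UMIs in a double-positive pool, and log2 ratios from 1.06 to 2.26. These did not hold for all under other settings. Thinned to 4000 UMIs, knockout Chil5 was at -0.13 and wild-type Bcas1 at -0.37. Inside the Meg3-led cluster knockout Lgmn was at -0.26 and Chil5 at -0.046, and outside it wild-type Bcas1 was at -1.50 from 1 UMI. In wild-type cells with Gem only, Chga was at 8.41 CPM and Chil5 at 9.78 CPM, against 6.73 and 9.69 CPM in double-positive cells. In the knockout they were at 5.47 and 11.6 CPM with Gem only, below the double-positive levels. Ltf, a neutrophil granule gene, also met the naming rule, but all 162 of its UMIs in knockout double-positive cells came from 1 cell, and the wild-type pool held 1 UMI.

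**Figure D4:**
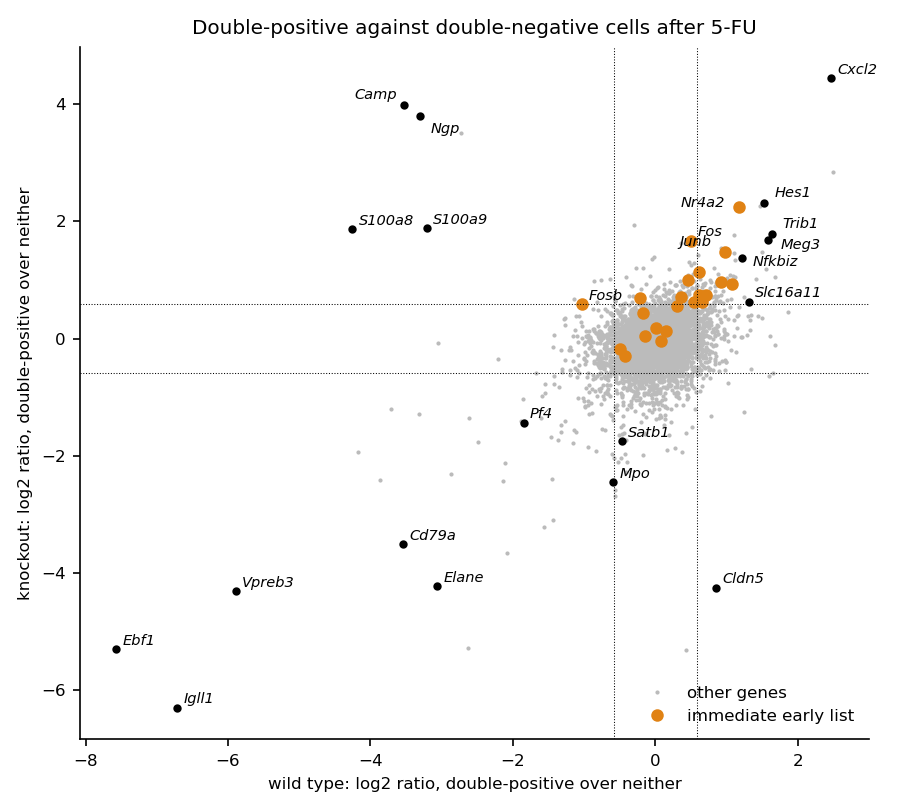
Log2 ratio of double-positive over double-negative cells in the wild type (horizontal axis) and the knockout (vertical axis) for genes with at least 200 UMIs over the 4 pools, with 0.5 counts added to each sum. Orange points are the immediate early list, named points are discussed in the text, and dotted lines mark 1.5-fold; Cxcl2 stands at 2.47 and 4.44, and the neutrophil granule genes Camp and Ngp at the upper left come from 1 knockout cell.

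Most of the 10 genes with the lowest ratios in both genotypes were genes of early B cells, and Elane of granulocytes was among them. Igll1, a surrogate light chain of the pre-B cell receptor, had 0 UMIs in double-positive cells of either genotype. In double-negative cells it had 492 and 222 UMIs, held by 1.13% of wild-type and 0.754% of knockout cells. Ebf1, the transcription factor that commits cells to the B lineage, had 0 UMIs against 891 in the wild type and 1 against 333 in the knockout. It was held by 1.18% and 0.843% of double-negative cells. UMIs from so few cells do not bound the size of a difference. Vpreb3, Cd79a, Mzb1, Rag1, Il7r, Blnk and Ccr2 had between 0 and 4 UMIs in each double-positive pool. In the knockout the share of cells was not lower for Cd79a (1.15% against 0.887%), Vpreb3 (0.763% against 0.710%), Il7r and Blnk. It was lower there for Igll1, Ebf1, Mzb1, Rag1 and Ccr2, and in the wild type for all of these genes but Mzb1. Of 5 measured B cell markers 4 were at least 1.5-fold lower in both genotypes, beside 1.88% of all genes, and Cd79b was at 31.8 against 35.5 CPM and 25.4 against 27.7 CPM. The B-lineage cluster held 55 cells, so these differences rest on few double-negative cells, and removing cells with lineage transcripts turned several of them.

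Elane, neutrophil elastase, was at 5.11 against 43.8 CPM in the wild type (-3.06, -3.83 to -2.45) and 3.20 against 61.5 CPM in the knockout (-4.22, -5.08 to -3.56). The share of cells with Elane was alike, 3.92% against 2.54% in the wild type and 2.67% against 2.84% in the knockout. Inside the Meg3-led cluster Elane had 2 against 4 UMIs in the wild type (log2 ratio 0.59) and 0 against 5 in the knockout. Mpo, myeloperoxidase, was at 104 against 156 CPM and 25.4 against 139 CPM, log2 ratios of -0.59 and -2.45. Prtn3, a further granule protease, was higher, at 771 against 574 CPM and 638 against 506 CPM. Of 7 neutrophil and monocyte primed markers 0 were higher and 2 lower in both genotypes, beside 1.53% and 1.88% of all genes, which is the background of the other counts in both genotypes given here. Of 5 megakaryocyte markers 2 were lower and 0 higher, among them Pf4, platelet factor 4, at 72.1 against 260 CPM (-1.85, -2.03 to -1.67) and 207 against 559 CPM (-1.43, -1.52 to -1.34). Inside the Meg3-led cluster Pf4 had log2 ratios of 0.16 and 0.72 (0.18 to 1.29). Of 8 genes of MHC class II presentation, H2-Aa, H2-Eb1 and Cd74 were lower in both genotypes, with log2 ratios from -1.16 to -1.79. Inside the Meg3-led cluster 0 of the 8 were lower, the medians were 0.24 and 0.28, and Cd74 had log2 ratios of 0.28 and 0.48. Of 4 measured mast cell and basophil markers 2 were lower, Mcpt8 and Fcer1a, and Cpa3 was at 7.27 against 34.3 CPM and 17.6 against 22.5 CPM.

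Stem cell markers were examined next. Of 12 LT-HSC markers 0 were 1.5-fold higher or lower in both genotypes, and the medians were 0.19 in the wild type and -0.13 in the knockout. Procr, the endothelial protein C receptor found on stem cells, was at 79.4 against 43.8 CPM in the wild type (0.86, 0.68 to 1.04) and 64.8 against 55.1 CPM in the knockout (0.23, 0.06 to 0.41). Mllt3, a maintenance factor of human stem cells, had log2 ratios of 0.73 and 0.28. Clec1a, a C-type lectin, had log2 ratios of 0.021 and -1.08, and Vwf was at 19.4 against 24.5 CPM and 27.2 against 43.8 CPM. The knockout double-negative cells included the Cyp26b1-led cluster, which held 19.6% of knockout and 5.79% of wild-type cells. Of 18 stem cell transcription factors 1, Hmga2, was higher in both genotypes, with log2 ratios of 0.85 and 0.95, and inside the Meg3-led cluster they were 0.19 (-0.19 to 0.55) and 0.29 (-0.17 to 0.75).

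In several lists no member passed 1.5-fold in both genotypes, beside 1.53% and 1.88% of all genes, a share at which lists of this size hold few or none. Of 11 measured heat shock genes 0 were higher or lower in both genotypes, and the medians were -0.028 and 0.066. This list held chaperone genes, Bag3 and Hsf1. Immediate early genes such as Fos, Jun and Egr1 were not in it, so it covers only the heat shock part of a response to tissue dissociation. Hspa8 was at 1218 against 1202 CPM in the wild type and 1395 against 1177 CPM in the knockout, and Hspa1a and Hspa1b had 8 and 19 UMIs over the 4 pools. Counts of 0 in both directions were also found for 11 genes of the integrated stress and unfolded protein response, 16 of DNA replication, 16 of mitosis, 13 G1 cyclins and kinases, 20 of the interferon response and 16 of the SIN3 complex. The interferon list still had a median of 0.25 in the wild type, against -0.044 in the knockout. Of 17 p53 targets 1 was higher, Plk3, at 6.19 against 3.49 CPM and 5.00 against 3.21 CPM.

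The comparison was repeated inside the Meg3-led cluster, where double-positive and double-negative cells came from the same cluster, 113 and 368 cells in the wild type and 110 and 140 in the knockout. Of the 23 immediate early genes 12 were at least 1.5-fold higher in both genotypes and 0 lower, beside 3.14% and 2.05% of all 13094 genes there, and the medians were 0.65 and 1.01. Outside the cluster 4 of 23 were higher and 0 lower, beside 1.37% and 3.19% of all genes, with medians of 0.11 and 0.40. The difference between inside and outside was not tested. Egr3, counted among the 12, had 14 against 4 UMIs in the wild type and 11 against 0 in the knockout. Fos was at 623 against 204 CPM in the wild type (1.61, 1.46 to 1.76) and 842 against 210 CPM in the knockout (2.00, 1.82 to 2.18). Outside the cluster it was at 283 in both wild-type classes and at 288 against 133 CPM in the knockout. Egr1 was at 665 against 290 CPM and 438 against 134 CPM inside the cluster, and its log2 ratios outside it were 0.11 and -0.026. Fosb, opposite in the genotypes over all clusters, was higher in both inside the cluster, at 70.2 against 44.8 CPM (0.65, 0.24 to 1.05) and 129 against 54.8 CPM (1.23, 0.85 to 1.62). The ratios of Fos and Egr1 were thus larger inside this cluster than outside it in both pools.

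The genes whose pattern was most like that of Nr4a1 and Gem were ranked by the share of cells with a UMI over the classes, in both genotypes together. Fos, Nfkbiz, Zfp36, Sik1 and Junb had the largest differences in share, and Fos was found in 50.2% of double-negative cells, 62.2% of cells with Gem only, 80.5% with Nr4a1 only and 88.0% of double-positive cells. With the same cells thinned to 4000 UMIs these shares were 37.9%, 40.3%, 60.3% and 62.9%. Junb went from 55.0% to 89.9%, or 36.0% to 62.9% when thinned, and Sik1 from 23.8% to 59.0%, or 12.5% to 25.9%. Sin3b went from 39.0% to 49.9% unthinned and stood at 22.8% and 22.9% when thinned, but these shares pool the genotypes, whose mix differed between the classes. By genotype its log2 ratio of double-positive over double-negative cells was 0.32 (0.18 to 0.46) in the wild type. In the knockout it was 0.088 (-0.29 to 0.44). Ltf, Meg3 and Dgkh had the largest excess of level in double-positive cells over both classes with 1 gene, with 1 cell behind Ltf, and Dgkh at 4.59 CPM against 1.64 and 2.53 CPM. By genotype, Dgkh had a log2 ratio of double-positive over double-negative cells of 0.041 in the knockout (-0.90 to 0.80), and its excess lay in the wild type.

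The double-positive cells of the 2 genotypes were then compared with each other. Of 9948 genes with at least 50 UMIs in the 2 pools, 423 (4.25%) were at least 1.5-fold higher in the knockout and 662 (6.65%) at least 1.5-fold lower. The median log2 ratio was -0.038.

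Genes with the highest knockout levels relative to the wild type were neutrophil granule genes, Ngp, Camp, S100a8, S100a9, Ltf, Chil3 and Lcn2. Of the 4079 UMIs of these 7 genes in the 262 knockout double-positive cells, 4033 (98.9%) came from 1 cell, which lay in the cluster led by Fcnb, Ngp and Camp. The next highest cell held 7. In wild-type double-positive cells the 7 genes had 16 UMIs. When the cell with most UMIs of a gene was left out of each pool, the log2 ratio was -0.13 for S100a9, 1.90 for Camp from 2 UMIs, and 2.60 for Lcn2 from 28 and 3 UMIs.

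Metallothioneins, which bind zinc and copper, were higher in the knockout. Mt1 was at 30.7 CPM in wild-type and 180 CPM in knockout double-positive cells, a log2 ratio of 2.55 (2.27 to 2.85), and was found in 49 and 173 cells. Mt2 was at 1.35 and 27.2 CPM (4.20, 3.08 to 5.98). In double-negative cells the ratios were 2.09 and 3.60, so the genotypes differed in the same direction outside the double-positive cells.

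Slc16a11, a monocarboxylate transporter, had the lowest ratio. It was counted 139 times in 64 wild-type cells and 7 times in 7 knockout cells, 37.4 and 1.40 CPM, a log2 ratio of -4.65 (-6.08 to -3.66), and -3.96 in double-negative cells. Wfdc17, a WAP domain protein, was at 217 and 48.0 CPM (-2.17, -2.39 to -1.97), and at -1.16 in double-negative cells. Pdgfrb, Trim12a and Gria3 were also among the 10 lowest ratios, at -1.85 to -1.56 on the log2 scale.

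Some lymphoid-primed genes were lower in the knockout double-positive cells. Of 5 measured members 4 were at least 1.5-fold lower and 0 higher, beside 6.65% and 4.25% of all genes, with a median of -2.18. In double-negative cells the median was -0.72, and the difference between the classes was not tested. Dntt, the terminal transferase of lymphoid progenitors, was at 64.9 CPM in the wild type and 13.0 CPM in the knockout (-2.31, -2.74 to -1.92), and at -1.03 in double-negative cells. Satb1, a chromatin organizer of lymphoid genes, was at 64.9 and 14.2 CPM (-2.18, -2.59 to -1.80), against -0.91. Ighm had ratios of -2.20 and -0.72. Flt3, the receptor that marks MPP4 cells, was at 83.4 and 32.0 CPM (-1.38), against -0.45. Dntt came from 50 wild-type and 24 knockout cells. At a stricter criterion of 2 UMIs of each gene its ratio was 0.019. Of the double-positive cells with a signature class, 25.3% in the wild type and 11.9% in the knockout were of the MPP4 class, and the part of this in the ratios was not tested.

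Mpo was at 104 CPM in wild-type and 25.4 CPM in knockout double-positive cells (-2.03, -2.33 to -1.74), and its ratio in double-negative cells was -0.17. It was found in 47 and 26 cells, and the cell with most held 18.7% and 21.3% of its UMIs. Ctsg, cathepsin G, was at 103 and 49.8 CPM (-1.05, -1.29 to -0.82), and -0.024 in double-negative cells. They were the 2 lower of 4 neutrophil and monocyte primed markers with enough UMIs, Ms4a3 was higher, at 28.0 and 51.0 CPM (0.86, 0.53 to 1.21), and 6.65% of all genes were lower and 4.25% higher. Pf4 was at 72.1 and 207 CPM (1.52, 1.33 to 1.72) and at 1.11 in double-negative cells, and the 3 megakaryocyte markers with enough UMIs were at least 1.5-fold higher in the knockout, beside 4.25% of all genes. Their median of 0.74 turned to -0.13 in cells with at least 2 UMIs of each gene.

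Immediate early genes were also compared between the genotypes in each class, and the difference between the classes was not tested. Over 20 measured members the median log2 ratio, knockout over wild type, was -0.032 in double-positive cells and -0.29 in double-negative cells, with 2 members 1.5-fold higher (Nr4a2 and Fosb) and 1 lower (Egr1) in double-positive cells, beside 4.25% and 6.65% of all genes. Fos had a ratio of 0.16 (0.06 to 0.25) in double-positive and -1.01 (-1.06 to -0.95) in double-negative cells. Outside the list, Zfp36 had -0.030 and -0.85, and Dusp1 -0.036 and -0.79. Egr1 had -0.95 (-1.06 to -0.84) and -1.03, so it was lower in the knockout in both classes. Nr4a2 was 0.88 (0.52 to 1.27) in double-positive and -0.18 in double-negative cells, and Cxcl2 2.00 (1.38 to 2.71) and 0.032. Hes1 was higher in the knockout in both, at 1.24 (0.69 to 1.84) and 0.45.

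**Figure D5:**
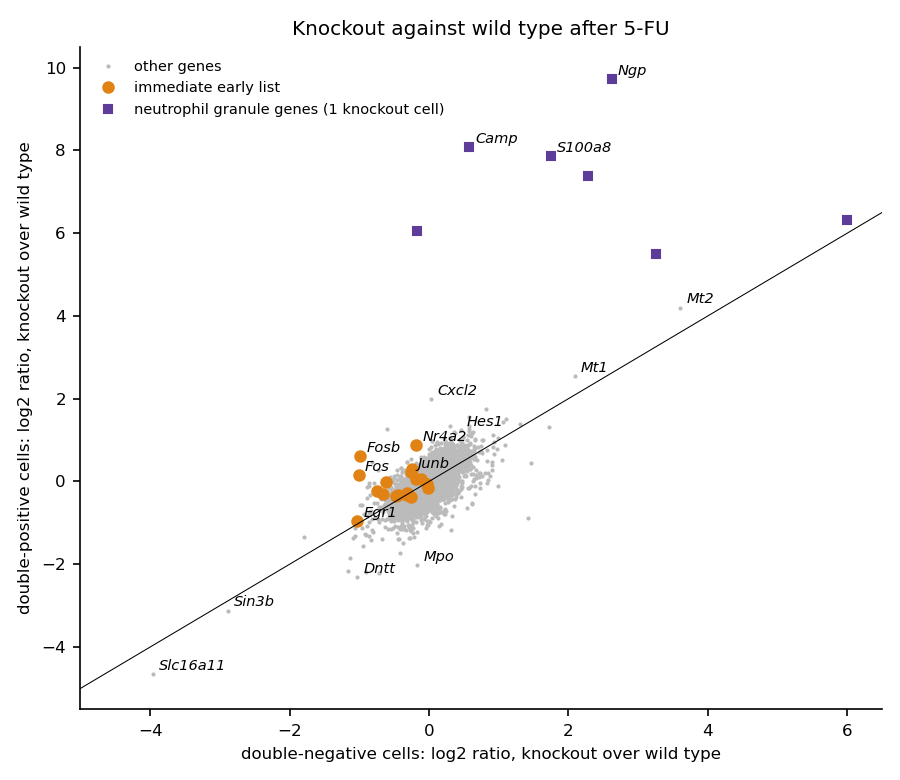
Log2 ratio of knockout over wild type in double-negative (horizontal axis) and double-positive cells (vertical axis) for genes with at least 100 UMIs in the double-positive pools; the line marks equal ratios. Orange points are the immediate early list, of which Fos lies at -1.01 and 0.16 and Egr1 at -1.03 and -0.95, and purple squares are 7 neutrophil granule genes whose knockout UMIs came almost all from 1 cell.

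The count of mitosis genes past 1.5-fold changed when cells were weighted to equal depth. At the cells' own depth 11 of 16 were at least 1.5-fold higher in knockout double-positive cells and 0 lower, beside 4.25% and 6.65% of all genes, with a median of 0.64, against 0.34 in double-negative cells. Of 16 DNA replication genes 5 were higher, with a median of 0.52. Inside the Meg3-led cluster the DNA replication median was -0.087, and outside it 0.50. The mitosis median was 1.02 inside and 0.55 outside. Several mitosis genes had few UMIs inside, such as Ccnb2 with 3 in wild-type and 8 in knockout double-positive cells. Rrm2, a subunit of ribonucleotide reductase, was at 25.6 and 60.2 CPM (1.23, 0.90 to 1.58). Knockout double-positive cells were deeper, and when they were weighted to the depth deciles of the wild-type ones 1 of the 16 mitosis genes was past 1.5-fold and the median was 0.22.

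In several groups few or no members were past 1.5-fold, beside the background of 4.25% and 6.65%. Of 12 LT-HSC markers 0 were past 1.5-fold in either direction, with a median of -0.049, while in double-negative cells the median was 0.40. Of 16 SIN3 complex subunits and 11 heat shock genes 0 were either. Of 18 interferon response genes 3 were lower and 0 higher. Dlk1 was at 8.61 and 1.80 CPM and Meg3 at 36.9 and 21.8 CPM, log2 ratios of -2.20 and -0.76.

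The same criterion was applied to the homeostasis library, which was not used to choose the cells. There 27 of 11579 wild-type cells (0.233%, 0.154 to 0.339) and 11 of 4628 knockout cells (0.238%, 0.119 to 0.425) were double-positive, and the intervals overlapped. At 4000 UMIs these were 1 and 5 cells in the draw used, and the mean share over all possible draws was 0.0439% and 0.0632%. At that depth Nr4a1 was found in 122 of 10744 and 47 of 4268 cells and Gem in 4.36% and 4.59%, against 5.92% and 5.59% for Nr4a1 and 16.3% and 16.1% for Gem after 5-FU. Treatment and library cannot be told apart. In barcodes of 10 to 100 UMIs of the homeostasis library, which hold free RNA, Nr4a1 was at 111 CPM (94.7 to 129) and Gem at 50.5 CPM, while the wild-type cells were at 3.03 and 11.3 CPM. The same held for Fos, at 1151 against 36.4 CPM, Jun, at 872 against 73.2 CPM, Junb, at 460 against 39.3 CPM, and Egr1, at 447 against 28.9 CPM. It also held for Zfp36 (317 against 34.0), Nfkbiz (184 against 41.1), Nr4a2 (80.2 against 11.6) and Trib1 (66.0 against 1.43). Hes1 was at 37.5 against 1.46 CPM and Meg3 at 28.5 against 7.74 CPM, while Sin3b was lower, at 65.4 against 80.3 CPM. All these genes except Sin3b were thus higher in free RNA than in the wild-type cells. The part of free RNA in the homeostasis double-positive cells was not tested, so their values below are a description only. Fos in these 38 cells was at 23.7 against 36.4 CPM in the wild type and at 278 against 15.5 CPM in the knockout, from 9 and 35 UMIs. The log2 ratios were -0.54 (-1.75 to 0.31) and 4.19 (3.63 to 4.66), so the wild-type interval included 0. Other genes were higher in both genotypes. Jun had 1.19 (0.80 to 1.54) and 1.28 (0.32 to 2.01), Egr1 0.88 (0.11 to 1.49) and 3.11 (2.14 to 3.85). Nfkbiz had 0.90 (0.29 to 1.41) and 1.86 (0.89 to 2.59). In the knockout Jun, Egr1 and Nfkbiz each rested on 13 UMIs in the 11 double-positive cells. The wild-type intervals of Junb, Zfp36, Sik1, Ier2, Dusp1 and Nr4a2 included 0.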

How the data were processed

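RNA and hashtag antibodies of sorted LSK cells were measured by droplet sequencing in 2 libraries, homeostasis and 5-FU, with the wild-type and knockout pool together in each. The deposited values are UMI counts for each gene in each barcode, from the Cell Ranger runs of the authors, and the 5-FU table lists called barcodes while the homeostasis table lists all droplets. The submitters' processing notes also name Seurat, DESeq2 and mm9, with no role given; promoter coordinates are from RefSeq and are not joined to the counts. Tags were called with HTODemux (Seurat 5.3.0, R 4.3.3, positive quantile 0.99) on 12753 barcodes of the 5-FU library; tag doublets were left out, and no further doublet caller was run, so doublets within a genotype remain. The hashtag of each genotype is from the study's methods. In the homeostasis library barcodes with at least 2921 UMIs were taken as cells, and 33 singlet barcodes occurred in both libraries.

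UMIs were summed per genotype and class and scaled to CPM. Log2 ratios used 0.5 added counts, with exact Poisson-based 95% intervals, for genes with at least 50 UMIs over the pools compared. "Higher" and "lower" in counts mean a ratio of at least 1.5. No test was run, because each genotype was 1 pool of 2 mice. Intervals assume counting error only, and cells of a pool vary more than that. Cells were clustered in scanpy 1.11.5 (Python 3.11.15) with Leiden resolution 1 on 1915 variable genes.

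The members and the 38 gene lists were chosen with earlier results of these data known. Named by rule were Nr4a1, Gem, Meg3 and Sin3b; the 15 highest and 10 lowest ratios in both genotypes (at least 200 UMIs); the 10 highest and 10 lowest knockout ratios (at least 100 UMIs); up to 4 members per list; and the 8 genes most like Nr4a1 and Gem over the classes. Further list members were named after their values were seen. Alternatives covered depth, tag calling, the UMI criterion, filters, lineage cells and clusters.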

Additional observations from a re-analysis of the deposited data

Results flagged for a closer look

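Some genes had opposite directions in the 2 genotypes, with intervals that left out 0; the difference between the genotypes was not tested. The values are log2 ratios of double-positive over double-negative cells, wild type first. For the granule genes they were -3.31 and 3.80 for Ngp, -3.53 and 3.98 for Camp, -4.25 and 1.87 for S100a8, -3.21 and 1.88 for S100a9, and -2.73 and 3.50 for Chil3. Of the UMIs of 7 granule genes in knockout double-positive cells, 98.9% came from 1 cell. Dntt had 0.29 and -0.99, Fosb -1.02 and 0.58, and Jund -0.17 and 0.43. Without the wild-type cell with most Dntt UMIs, the wild-type Dntt ratio was 0.15 (-0.065 to 0.35), an interval that included 0. Jund, an AP-1 subunit, was at 261 against 294 CPM in the wild type and 259 against 193 CPM in the knockout, so its level in double-positive cells was alike in both.

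Barcodes outside the 2 genotype calls also met the criterion. Among barcodes with no tag call after 5-FU, 50 of 3290 were double-positive (1.52%, 1.13 to 2.00). Among those called as tag doublets, 60 of 434 were (13.8%, 10.7 to 17.4), with a median of 32538 UMIs.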

How the results depend on the processing

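Of the main results under alternatives, 86 stayed within the limit set for a change and 35 moved; among single genes and list medians 2701 stayed, 689 moved and 29 turned. No paired analysis was possible because each genotype had 1 pool, which also left no replicate to leave out. The causes were not tested. The number of genes measured differed between settings. Thinned to 4000 UMIs, the shares were 1.48% and 1.91% (0.43 points apart), and 887 genes were higher and 502 lower of 11764. By genotype 93 and 111 differed of 1732 measured, against 9948 measured at own depth. Of the mitosis genes still measured 1 was higher. Turned were Meg3 -0.66, Ltf -2.14, Chil5 -0.13, Rag1 0.034, Il7r 1.19, Ccr2 0.26 and Blnk 0.53 in the knockout and Bcas1 -0.37 in the wild type. The knockout share was 5.99% at a tag quantile of 0.95, 5.99% with a tag share of at least 80%, and 5.84% weighted to wild-type depth, where 1 mitosis gene was higher. At 2 UMIs of each gene, the shares were 0.811% and 1.77%. There 558 genes were higher and 373 lower of 12961, and 415 of 5669 were lower in the knockout. Ltf -3.48, Dntt 0.019 and the megakaryocyte median -0.13 turned. Without cells bearing lineage genes, Ebf1 0.42, Vpreb3 1.15, Cd79a 0.77 and the B cell median 0.42 turned in the knockout, Mzb1 0.017, Rag1 0.15, Il7r 0.51 and Blnk 1.17 in the wild type, and S100a9 -0.48 between genotypes (-0.42 without granule gene cells). With the top and bottom 2% of cells removed, the knockout macrophage median was 0.025. With double-negative cells weighted to depth 422 of 13094 genes were higher. Cells with either gene gave 110 higher and 132 lower of 13739 genes, and 3 immediate early genes higher. A filter of 200 UMIs gave 82 higher and 102 lower of 11141 genes, and 178 and 159 of 6077 by genotype. A filter of 20 gave 381 of 14488 higher in both genotypes and 1035 of 11395 lower in the knockout. In the Meg3-led cluster 77 were higher and 69 lower of 9745 genes with at least 50 UMIs there. By genotype 268 and 351 of 6844 differed, with 1 mitosis gene higher among those still measured. Among genes named by rule and list medians, some turned there. In the knockout these were Lgmn -0.26, Chil5 -0.046 and the lymphoid-primed median 0.20, and in the wild type Elane 0.59 and Fosb 0.65. The megakaryocyte median (0.16 and 0.55) also turned. Other list members turned too, for example Pf4 0.16 and 0.72, Cd74 0.28 and 0.48 and knockout Hbb-bt -0.41. Homeostasis shares at 4000 UMIs were 0.0093% and 0.117% in the draw used, and the mean over all possible draws was 0.0439% and 0.0632%. At clustering resolution 0.5, 54.9% of wild-type and 46.9% of knockout double-positive cells shared a cluster led by Wfdc17 and Slc16a11, 12.0% of whose cells were double-positive, and Meg3 led none. Depth limits every gene under 50 UMIs.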

Other observations

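Cytokine feedback, adhesion and erythroid genes were not described above. Of 15 measured genes of cytokine signaling feedback, Socs2 and Socs3, inhibitors of JAK-STAT signaling, were at least 1.5-fold higher in double-positive cells of both genotypes and 0 were lower, beside 1.53% and 1.88% of all genes. Socs3 was at 57.9 against 30.1 CPM in the wild type (log2 ratio 0.94, 0.72 to 1.15) and 57.6 against 21.1 CPM in the knockout (1.45, 1.24 to 1.66). Socs2 was at 27.5 against 15.5 CPM and 51.0 against 33.1 CPM. Inside the Meg3-led cluster neither passed 1.5-fold, with log2 ratios of 0.26 and 0.18 for Socs3 and 0.47 and 0.31 for Socs2. Of 23 genes of surface receptors and adhesion 2 were higher and 1 lower, beside the same shares. Ly6a, which encodes Sca-1, was among the higher, at 198 against 109 CPM and 192 against 119 CPM, and the integrin Itgb3 was lower, at 12.4 against 25.3 CPM and 13.0 against 26.4 CPM. Inside that cluster Ly6a had log2 ratios of 0.22 and -0.0085. In the knockout against the wild type, 5 of 20 were lower and 0 higher, beside 6.65% and 4.25% of all genes, among them the homing receptor Cxcr4, at 67.3 and 29.2 CPM (-1.20, -1.51 to -0.90).

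Among 5 erythroid markers Hbb-bt, an adult beta globin, was higher, at 116 against 38.4 CPM in the wild type and 119 against 69.3 CPM in the knockout, but inside the Meg3-led cluster the knockout was at 129 against 171 CPM (log2 ratio -0.41, -0.69 to -0.13). Car1 was lower, with 7 and 3 UMIs in the double-positive pools. Of 4 measured erythroid markers 3 were at least 1.5-fold higher in knockout than wild-type double-positive cells and 0 lower, beside 4.25% and 6.65% of all genes. They were Gata1, Klf1 and Epor, genes of erythroid commitment, with log2 ratios of 0.98, 1.54 and 0.87, against 0.04, 0.42 and 0.09 in double-negative cells. The MPP2 class took 10.0% of wild-type and 25.7% of knockout double-positive cells with a signature class, and its part in these ratios was not tested. Ppp1r15a, which reverses the arrest of translation, was at 163 against 102 CPM and 188 against 98.5 CPM, and with Zfp36 it was 1 of 2 higher genes among 10 of mRNA decay and translation feedback.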
